A study of Mus musculus with 8 samples.

Results

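The collagen genes of the mouse were taken as the genes of the count table whose symbols have the form Col, a type number, the letter a and a chain number. That rule found 44 genes of 28431 in the table. By the structure their proteins are known to form, 11 encode fibrillar chains, 8 encode chains of basement membranes (6 of type IV and 2 multiplexins, Col15a1 and Col18a1) and 25 encode others. The others comprised 9 chains that sit on the surface of fibrils (the FACIT group), 6 type VI chains, 4 transmembrane collagens, 3 short-chain collagens, the anchoring fibril chain Col7a1, and Col26a1 and Col28a1, which were left unclassified.

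Collagens are triple helices of alpha chains that are hydroxylated and folded in the endoplasmic reticulum, secreted, trimmed and crosslinked outside the cell. Fibrillar collagens form the ropes of skin, bone, tendon and cartilage, type IV collagen forms the network of basement membranes, and the other families decorate fibrils, span membranes or tether layers. In the early mouse embryo type IV collagen and laminin are laid down largely by primitive endoderm and its descendants, whereas fibrillar collagens are typical of mesenchyme.

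PolyA RNA was sequenced in 8 libraries from mouse embryonic stem cells with a MERVL::EGFP reporter, which marks rare cells resembling the cleavage-stage embryo, grown on gelatin with serum, LIF and 2i (CHIR99021 and PD0325901). All cells were transfected with RNAiMax on consecutive days with 20 pmol of siRNA in total, and each of the 4 groups had 2 biological replicates. The control group received negative control siRNA at 20 pmol. In the others Chaf1a siRNA at 10 pmol was joined by 10 pmol of either negative control siRNA, the pool si308 or the pool si309 (of the last, 1 label gives no dose for the parts). Chaf1a encodes the biggest subunit of CAF-1, which places histones on newly made DNA, and both pools were diced from double-stranded RNA against mDux, a transcription factor of early embryos. Below, cells given only negative control siRNA are the negative control or control cells, Chaf1a siRNA without a pool is called Chaf1a siRNA, and si308 and si309 stand for each pool together with Chaf1a siRNA. Values per library are given with replicate 0 before replicate 1, as the count columns are numbered.

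Library totals were 26042851 to 42375685 counts. Levels are counts scaled to library size with TMM factors (CPM). Chaf1a RNA was 139 CPM on average in the negative control, and the averages of the depleted groups were 29.6 CPM without a pool, 34.6 CPM for si308 and 31.5 CPM for si309, and mDux was at 0.0303, 7.27, 0.0623 and 0.193 CPM in the same order of groups. The replicates of each group lay together on the first and second principal components, which held 76.5% and 19.1% of the variance. The stem cell markers Pou5f1 and Nanog averaged 894 and 776 CPM in control cells, and 631 and 512 CPM after Chaf1a siRNA. In a bulk library, a change in the number of cells that make a collagen and a change in its RNA per cell cannot be told apart.

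Col4a1 and Col4a2, whose products join into the main type IV collagen, lie head to head on chromosome 8. Their annotated transcripts overlap by 22 bases at their starts (GRCm38, Col4a1 11198423 to 11312826 on the minus strand, Col4a2 11312805 to 11449287 on the plus strand). RefSeq windows on GRCm38.p6 from 250 bases before to 50 after each start share 78 bases, printed in capitals, and are shown because the windows of both genes overlap:
Col4a1 (chr8:11312777-11313076, minus strand): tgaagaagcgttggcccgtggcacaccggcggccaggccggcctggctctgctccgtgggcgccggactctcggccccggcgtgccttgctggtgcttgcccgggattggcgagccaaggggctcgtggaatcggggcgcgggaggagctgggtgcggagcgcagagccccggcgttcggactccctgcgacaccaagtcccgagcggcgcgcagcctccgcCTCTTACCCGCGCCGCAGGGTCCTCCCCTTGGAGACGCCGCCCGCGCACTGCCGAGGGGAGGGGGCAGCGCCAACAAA
Col4a2 (chr8:11312555-11312854, plus strand): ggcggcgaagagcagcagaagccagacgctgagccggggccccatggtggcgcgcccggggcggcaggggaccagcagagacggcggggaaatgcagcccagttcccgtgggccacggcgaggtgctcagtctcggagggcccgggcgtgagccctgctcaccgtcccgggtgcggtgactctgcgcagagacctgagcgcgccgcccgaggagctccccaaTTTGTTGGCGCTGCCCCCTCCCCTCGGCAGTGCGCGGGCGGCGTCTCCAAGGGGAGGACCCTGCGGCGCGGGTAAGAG
The capitals of the upper window are the reverse complement of those of the lower one.

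Col1a2, which encodes a chain of type I collagen, had the widest fitted change of the members with more than 3 counts in the negative control. Its window from the same RefSeq table, in which the start lies within the longer GENCODE gene (chromosome 6, 4504814 to 4541544, plus strand), is shown with CCAAT on either strand in capitals:
Col1a2 (chr6:4505368-4505667, plus strand): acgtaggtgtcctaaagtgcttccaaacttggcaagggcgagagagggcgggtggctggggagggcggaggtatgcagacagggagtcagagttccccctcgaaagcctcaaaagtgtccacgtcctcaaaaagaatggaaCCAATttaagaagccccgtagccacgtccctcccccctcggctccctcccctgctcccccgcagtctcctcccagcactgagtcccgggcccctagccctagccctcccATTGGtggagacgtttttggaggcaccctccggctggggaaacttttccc
Of the members, 35 had at least 1 window and 38 windows were held in all. CCAAT on either strand stood in 13 of them (34.2%) against 37.4% of 32851 windows of all genes, and TATAAA in 5 (13.2%) against 13.6%. GGGCGG on either strand stood in 23 (60.5%) against 35.7%. A match describes the letters only.

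In cells given only negative control siRNA, the collagen RNA was mostly that of Col18a1, a basement membrane collagen with an endostatin domain. The summed level of all 44 genes in the negative control was 512 ± 27 CPM (SD, n = 2), of which Col18a1 made up 334 ± 8.9 CPM. Scaled to exon length, the order in the negative control was Col18a1 at 47.5 CPM per kilobase, Col9a2 at 9.22, Col4a1 at 5.02, Col5a1 at 3.25, Col9a3 at 2.68 and Col4a2 at 1.92. With Chaf1a siRNA the order was Col18a1 at 69.8 CPM per kilobase, Col4a1 at 30.4, Col9a3 at 9.87, Col9a2 at 9.21, Col4a2 at 5.78 and Col5a1 at 4.99. These orders depend in part on the length used. With the longest transcript as length, Col9a3 came before Col5a1 in the negative control, and with Chaf1a siRNA the first 4 genes kept their places while Col2a1 ranked 5, Col4a2 6, Col7a1 7 and Col5a1 8. Col9a2 and Col9a3 could not be ordered there, since their ratio per kilobase was 1.02 in replicate 0 and 0.845 in replicate 1. Of the 44 genes, 33 reached a mean of 1 CPM in some group and 11 did not.

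**Figure D1:**
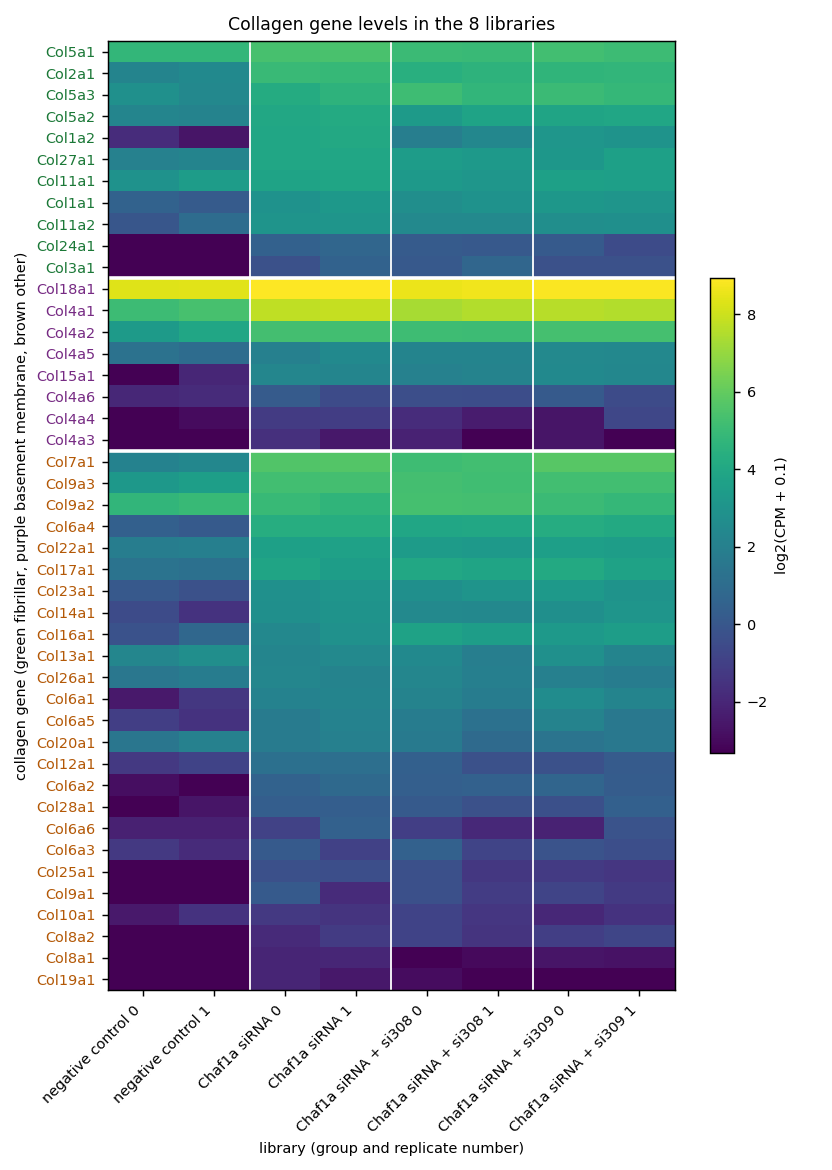
Heat map of the level of the 44 collagen genes (rows, by class and by mean with Chaf1a siRNA) in the 8 libraries (columns), as log2(CPM + 0.1). The 2 columns on the left, the negative control, are darker in most rows than the 6 with Chaf1a siRNA, and Col18a1 is the brightest row in every library.

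Chaf1a siRNA was compared with the negative control to see which collagen genes move when CAF-1 is depleted. Collagen genes of every class were higher: summed over members, fibrillar RNA went from 59.4 ± 1.9 to 176 ± 8.4 CPM, basement membrane RNA from 386 ± 18 to 766 ± 14 CPM, and the RNA of the others from 66.7 ± 7.5 to 213 ± 0.55 CPM (SD, n = 2). Of the 41 members that could be tested, 37 rose and 0 fell at an adjusted p under 0.05 (edgeR quasi-likelihood test, Benjamini-Hochberg over 17977 genes). Among all genes tested, 36.7% rose and 30.8% fell. All 11 fibrillar members rose, as did 7 of 7 tested basement membrane members and 19 of 23 others. With a change of at least 2-fold as well, 33 members rose, against 21.5% of all genes tested.

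The median fitted log2 change of the members was 2.49, and 2.46 with the 5 genes that had no count in the negative control set at their lower bounds, against 0.05 for all genes tested. The other members, Col4a3, Col8a1 and Col19a1, had too few counts to be tested and were at 0 in both negative control libraries. Of the 41, 8 had at most 3 counts in the negative control libraries together. These and some others passed the filter on low counts only through the groups in which they were higher. Examples of the others are Col1a2 with 5 and 2 counts in the negative control, Col15a1 with 0 and 5, and Col6a6 with 3 and 4. The counts above are therefore not evidence free of that filter. Of the 33 members with more than 3 counts there, 29 rose and 0 fell. This count still holds members that passed only through the higher groups, so it is not free of the filter either. Throughout the table, genes with a mean over all libraries under 10 CPM were called raised more often than genes at 10 CPM or more. Of the members with a mean under 1 CPM, 10 of 11 rose against 45.8% of such genes. At 1 to 10 CPM 14 of 16 members rose against 47.6%, and at 10 CPM or more 13 of 14 against 27.8%. Scaling by library totals in place of TMM factors put the median over all genes at 0.22, with 45.2% raised and 21.1% lowered, and the members' median to 2.65.

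**Figure D2:**
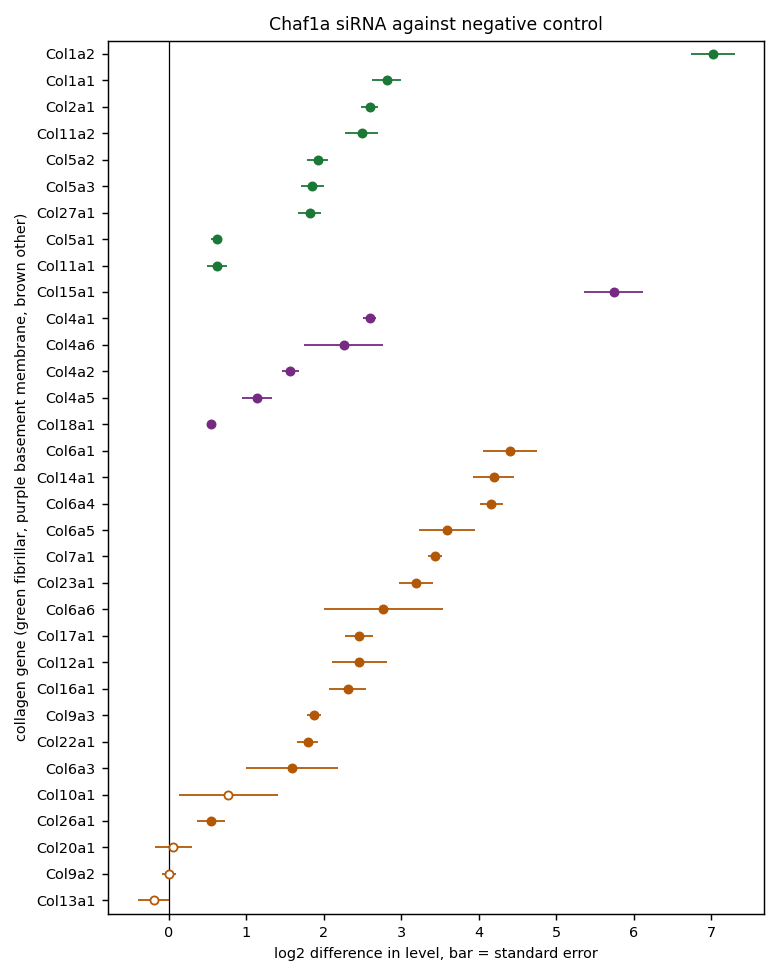
Fitted log2 difference in level between Chaf1a siRNA and the negative control for the 33 tested collagen genes with more than 3 counts in the negative control, by class, with bars of 1 standard error and filled points for an adjusted p under 0.05. All points but 4 are filled and lie to the right of 0, from 0.54 for Col26a1 to 7.02 for Col1a2.

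Among fibrillar collagens, the chains of type I collagen, the main collagen of skin and bone, rose by unequal amounts. Col1a2 (ENSMUSG00000029661) was at 0.196 and 0.0606 CPM in control cells, 15.2 and 17.0 CPM with Chaf1a siRNA, 3.71 and 4.95 CPM with si308, and 8.64 and 7.86 CPM with si309. Its partner chain Col1a1 (ENSMUSG00000001506, chromosome 11, 94936224 to 94953042, plus strand) was at 1.37 and 1.03 CPM, 7.45 and 9.30 CPM, 6.66 and 7.47 CPM, and 8.76 and 8.29 CPM in the same order. Every library with Chaf1a siRNA lay above both negative control libraries for each gene, and only for Col1a2 did the 4 groups stand wholly apart from each other. With Chaf1a siRNA alone Col1a2 rose by 7.02 (log2, SE 0.28, adjusted p = 4e-15) and Col1a1 by 2.81 (SE 0.19, adjusted p = 3e-11).

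The ratio of Col1a1 to Col1a2 counts was 7.0 and 17.0 in the negative control, on 5 and 2 Col1a2 counts. It was 0.491 and 0.547 when Chaf1a siRNA was given without a pool, 1.79 and 1.51 for si308, and 1.01 and 1.05 for si309. Each group with Chaf1a siRNA thus had its own narrow range of the ratio, with the depleted cells that lacked a pool at the lowest values. These ratios are not scaled to gene length. Per kilobase of exon the ratio with Chaf1a siRNA alone was 0.929 and 1.04. With the longest transcript as length, Col1a1 was at 1.41 and Col1a2 at 3.01 CPM per kilobase in that group. Which chain had more RNA there thus depends on the length used. Type I collagen is mostly a trimer that contains more of the Col1a1 product than of the Col1a2 product.

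Col3a1, a fibrillar collagen of skin and vessels, had 0 counts in both negative control libraries. It was at 0.716 and 1.35 CPM with Chaf1a siRNA, 0.960 and 1.55 CPM with si308, and 0.730 and 0.710 CPM with si309. Against a floor of 3 counts per library these means were at least 9.88-fold, 12-fold and 6.9-fold higher. Col24a1, a minor fibrillar chain, likewise had 0 counts in the negative control and was at 1.32 and 1.57 CPM, 1.06 and 0.972 CPM, and 1.02 and 0.608 CPM in the same order, at least 13.8-fold, 9.72-fold and 7.78-fold higher. These are the fibrillar genes whose level in the negative control was not detectable at this depth.

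Collagens of cartilage fibrils were also higher with Chaf1a siRNA. Col2a1, the major cartilage collagen, was at 4.51 and 5.51 CPM in control cells, 31.7 and 29.3 CPM with Chaf1a siRNA, 21.5 and 24.4 CPM with si308, and 26.2 and 27.2 CPM with si309. It rose by 2.59 with Chaf1a siRNA (log2, SE 0.11, adjusted p = 1.2e-14), and no library of the negative control reached any other. Col11a2, a chain of type XI collagen, was at 0.863 and 1.91 CPM, 7.96 and 8.26 CPM, 5.44 and 5.34 CPM, and 6.57 and 6.82 CPM over the same groups and rose by 2.49 (SE 0.21). Its partner Col11a1 was at 7.61 and 10.8 CPM, 13.7 and 14.8 CPM, 9.44 and 8.58 CPM, and 12.5 and 11.9 CPM and rose by 0.62 (SE 0.13, adjusted p = 0.00027). For Col11a1 the si308 libraries lay between the negative control libraries. Col27a1, which is expressed in cartilage, was at 4.12 and 4.51 CPM, 15.4 and 15.2 CPM, 10.9 and 9.62 CPM, and 8.95 and 12.5 CPM and rose by 1.82 (SE 0.15).

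Type V collagen starts and limits the growth of type I fibrils, and its chain Col5a1 had the highest level per kilobase of the fibrillar genes in the negative control. Col5a1 was at 27.8 and 27.3 CPM there, 41.8 and 42.9 CPM with Chaf1a siRNA, 32.4 and 31.5 CPM with si308, and 37.7 and 33.7 CPM with si309, and it rose by 0.62 with Chaf1a siRNA (log2, SE 0.07, adjusted p = 2.3e-07). Col5a2 was at 4.67 and 4.39 CPM, 16.4 and 18.0 CPM, 10.1 and 13.7 CPM, and 14.1 and 15.0 CPM over the same groups and rose by 1.92 (SE 0.14). Col5a3 was at 6.91 and 5.21 CPM, 18.8 and 24.6 CPM, 35.0 and 27.1 CPM, and 32.4 and 28.3 CPM and rose by 1.85 (SE 0.15). The pool libraries lay below those of Chaf1a siRNA for Col5a1 and Col5a2 and above them for Col5a3.

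Among basement membrane collagens, both chains of the common type IV network rose. Col4a1 was at 33.6 and 41.4 CPM in control cells, 217 and 236 CPM with Chaf1a siRNA, 162 and 185 CPM with si308, and 198 and 184 CPM with si309. Col4a2 was at 10.0 and 15.4 CPM, 39.2 and 37.4 CPM, 35.5 and 33.7 CPM, and 39.7 and 39.7 CPM in the same order. The depleted libraries lay above the negative control for both genes. With Chaf1a siRNA Col4a1 rose by 2.59 (log2, SE 0.08, adjusted p = 3.6e-17) and Col4a2 by 1.57 (SE 0.11, adjusted p = 8.5e-11).

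Although the genes share their start region, shown above, Col4a1 gained more than Col4a2 in each depleted library. Their count ratio was 3.34 and 2.69 in the negative control, 5.55 and 6.32 when Chaf1a siRNA was given without a pool, 4.55 and 5.5 for si308, and 4.98 and 4.63 for si309. The mean log2 ratio differed from that of the negative control by 0.98, 0.74 and 0.68 in these groups, and by 0.80 over the 6 depleted libraries as 1 group. With 2 libraries against 2 the exact two-sided permutation p was 0.333, and with 6 against 2 it was 0.0714. Each is the smallest that the design allows, so these tests cannot decide whether the ratio moved. The 6 depleted libraries come from different siRNA groups and are not replicates of 1 condition.

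The remaining type IV genes were low. Col4a5 was at 2.39 and 1.94 CPM in control cells, 4.01 and 5.53 CPM with Chaf1a siRNA, 4.48 and 4.51 CPM with si308, and 5.33 and 5.20 CPM with si309, and it rose by 1.14 with Chaf1a siRNA (log2, SE 0.19, adjusted p = 2.6e-05). Its head-to-head neighbour on chromosome X, Col4a6, had means of 0.169 CPM in control cells and 0.814 CPM after Chaf1a siRNA and rose by 2.26 (SE 0.51). Col4a4, a chain best known from the filter of the kidney, had 1 count in the negative control and 22 with Chaf1a siRNA, a ratio of 20.9 (exact 95% counting interval 3.37 to 861; adjusted p = 0.0034). Col4a3, which lies head to head with Col4a4 across a gap of 71 bases, was not tested.

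The multiplexins, which carry an endostatin-like domain, differed in range. Col18a1 (chromosome 10, 77052178 to 77166548, minus strand) was at 327 and 340 CPM in control cells, 489 and 491 CPM with Chaf1a siRNA, 379 and 407 CPM with si308, and 467 and 463 CPM with si309. It rose by 0.55 with Chaf1a siRNA (log2, SE 0.04, adjusted p = 4.4e-10). Col15a1 was at 0 and 0.151 CPM, 4.81 and 4.71 CPM, 4.13 and 4.42 CPM, and 5.59 and 4.94 CPM over the same groups and rose by 5.74 (SE 0.38, adjusted p = 2e-11). Without Col18a1 and Col4a1 the summed level of the remaining 42 members was 141, 439, 384 and 428 CPM in the 4 groups.

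**Figure D3:**
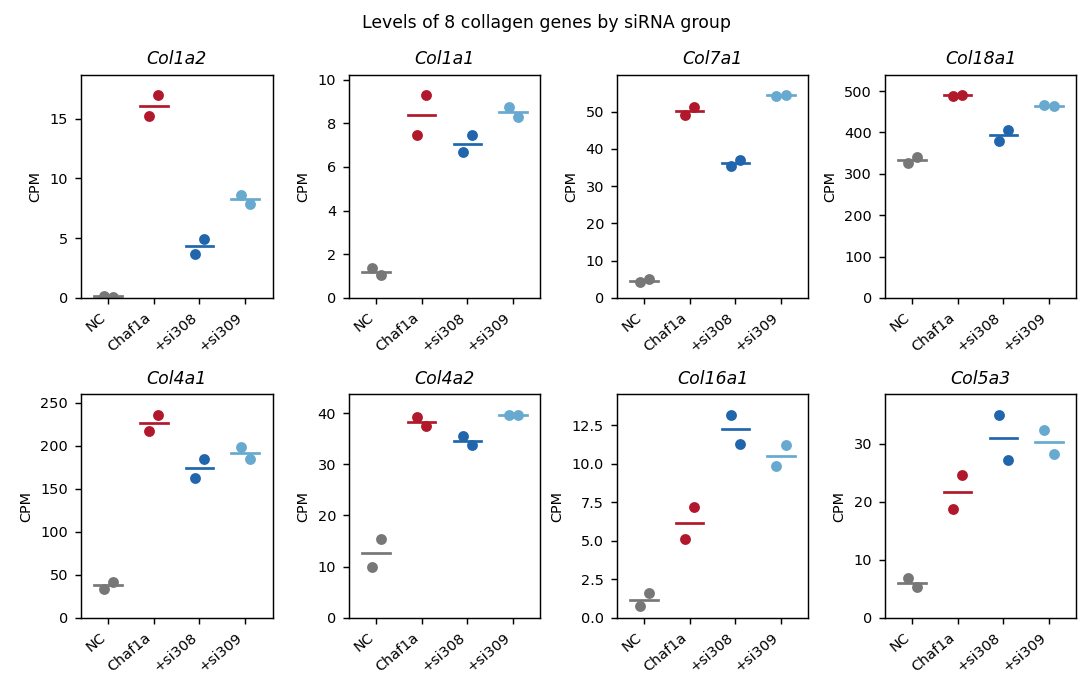
Level in CPM of 8 collagen genes in each library (points) with the group mean (line), for the negative control (NC), Chaf1a siRNA, and Chaf1a siRNA with si308 or si309. The negative control is the lowest group in every panel, the si308 points lie below Chaf1a siRNA for Col1a2, Col7a1, Col18a1 and Col4a1, and both pools lie above it for Col16a1 and Col5a3.

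Of the other collagens, Col7a1, the chain of the fibrils that anchor the epidermis to the dermis, had the smallest adjusted p. It was at 4.16 and 5.06 CPM in control cells, 49.2 and 51.2 CPM with Chaf1a siRNA, 35.5 and 37.1 CPM with si308, and 54.2 and 54.5 CPM with si309. Col7a1 (chromosome 9, 108953586 to 108984875, plus strand) rose by 3.43 with Chaf1a siRNA (log2, SE 0.09, adjusted p = 5.4e-18), and its groups stood apart from each other.

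Type VI collagen forms beaded filaments near cell surfaces, and all 6 of its genes rose with Chaf1a siRNA. Col6a4, one of 3 neighbouring genes on chromosome 9, was at 1.26 and 1 CPM in control cells, 20.1 and 19.8 CPM with Chaf1a siRNA, 15.2 and 16.1 CPM with si308, and 18.9 and 17.2 CPM with si309, a rise of 4.16 with Chaf1a siRNA (log2, SE 0.15). Col6a5, next to it, was at 0.392 and 0.242 CPM, 3.29 and 4.26 CPM, 3.42 and 2.27 CPM, and 4.41 and 2.91 CPM and rose by 3.59 (SE 0.36). Col6a1 was at 0.0785 and 0.303 CPM, 4.27 and 4.56 CPM, 4.38 and 3.47 CPM, and 6.06 and 4.51 CPM and rose by 4.40 (SE 0.35). In each of these genes the negative control lay apart from all other libraries, which overlapped among themselves for Col6a1 and Col6a5. Col6a2 had 1 count in the negative control and was at 1.35 and 1.72 CPM with Chaf1a siRNA, a count ratio of 88.2 (exact 95% counting interval 15.4 to 3520), and at 1.22 and 1.30 CPM with si308 and 1.49 and 1.09 CPM with si309. Col6a3 and Col6a6 stayed under a mean of 1 CPM and rose by 1.59 (adjusted p = 0.022) and 2.77 (adjusted p = 0.0033).

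The FACIT collagens bind to the surface of fibrils. Among those of type IX, which coats cartilage fibrils, Col9a3 was at 9.14 and 11.5 CPM in control cells, 37.8 and 38.3 CPM with Chaf1a siRNA, 38.8 and 36.5 CPM with si308, and 37.2 and 38.0 CPM with si309, and it rose by 1.87 with Chaf1a siRNA (log2, SE 0.09). Col9a2, which was the more abundant in the negative control, was at 26.9 and 30.2 CPM, 31 and 26 CPM, 40.4 and 38.2 CPM, and 33.1 and 28.9 CPM and differed by -0.00 (SE 0.09, adjusted p = 1). The ratio of Col9a2 to Col9a3 counts was 2.94 and 2.63 in the negative control and 0.679 to 1.05 in the depleted libraries. Col9a1 had 0 counts in the negative control and was at least 5.7-fold higher with Chaf1a siRNA (0.595 ± 0.58 CPM). Exons of Col9a3 share 234 bases (6.07% of its exon bases) with Tcfl5 on the opposite strand, and whether the counting used strand is not given in the sources used here.

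Col14a1, a FACIT collagen of tendon and skin, was at 0.589 and 0.242 CPM in control cells, 6.84 and 7.77 CPM with Chaf1a siRNA, 5.44 and 5.18 CPM with si308, and 6.83 and 8.34 CPM with si309 and rose by 4.19 with Chaf1a siRNA (log2, SE 0.26). Col12a1, its close relative, was at 0.314 and 0.454 CPM, 2.21 and 2.13 CPM, 1.25 and 0.717 CPM, and 0.730 and 1.04 CPM and rose by 2.46 (SE 0.36). Col16a1 (chromosome 4, 130047840 to 130099283, plus strand) was at 0.746 and 1.61 CPM, 5.13 and 7.17 CPM, 13.2 and 11.3 CPM, and 9.84 and 11.2 CPM and rose by 2.31 (SE 0.24). These genes thus shared a low start and parted with the pools: Col12a1 was lower in all 4 pool libraries than with Chaf1a siRNA alone, and Col16a1 was higher in all 4. Col22a1, known from the junction of muscle and tendon, was at 3.53 and 3.79 CPM, 12.4 and 12.9 CPM, 10.6 and 9.37 CPM, and 12.1 and 11.4 CPM and rose by 1.79 (SE 0.13). Col20a1 was at 2.75 and 4.12 CPM, 3.35 and 3.92 CPM, 3.23 and 1.76 CPM, and 2.54 and 2.94 CPM and was not called (0.06 with Chaf1a siRNA, SE 0.24, adjusted p = 0.85).

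Of the transmembrane collagens, Col17a1, a part of hemidesmosomes, was at 2.43 and 2.21 CPM in control cells, 14.2 and 11.1 CPM with Chaf1a siRNA, 16.3 and 14.0 CPM with si308, and 17.4 and 13.2 CPM with si309 and rose by 2.46 with Chaf1a siRNA (log2, SE 0.18). Col23a1 was at 0.981 and 0.727 CPM, 7.05 and 8.41 CPM, 6.88 and 8.03 CPM, and 9.59 and 7.73 CPM and rose by 3.19 (SE 0.22). The depleted groups of both genes overlapped each other and stood clear of the negative control. Col25a1 had 0 counts in the negative control and was at least 6.52-fold higher with Chaf1a siRNA (0.680 ± 0.010 CPM). Col13a1, known from the neuromuscular junction, was at 4.79 and 6.51 CPM, 4.64 and 5.38 CPM, 5.47 and 3.65 CPM, and 7.02 and 4.51 CPM, with overlapping groups, and was not called (-0.19 with Chaf1a siRNA, SE 0.21, adjusted p = 0.43).

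Col26a1 was at 2.79 and 3.48 CPM in control cells, 4.81 and 4.33 CPM with Chaf1a siRNA, 4.83 and 3.84 CPM with si308, and 3.97 and 3.45 CPM with si309 and rose by 0.54 with Chaf1a siRNA (log2, SE 0.18, adjusted p = 0.014). Col28a1 had 2 counts in the negative control and was at 1.15 and 1.16 CPM with Chaf1a siRNA, a count ratio of 33.7 (exact 95% counting interval 8.98 to 283), and at 0.992 and 0.717 CPM with si308 and 0.698 and 1.24 CPM with si309. Among the short-chain collagens, Col8a2 had 0 counts in the negative control and was at least 2.44-fold higher with Chaf1a siRNA (adjusted p = 0.0013), whereas Col10a1, the collagen of hypertrophic cartilage, had a difference of 0.77 (SE 0.64, adjusted p = 0.3).

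The calls of 3 members with Chaf1a siRNA were lost under some alternatives, with the difference still above 0. Col6a3, at 1.59 in the reported fit, was at 1.21 without negative control replicate 1 (adjusted p = 0.15), at 0.76 without Chaf1a siRNA replicate 0 (0.41) and at 1.54 in DESeq2 (0.074). Col6a6, at 2.77, was at 1.81 without Chaf1a siRNA replicate 1 (adjusted p = 0.096). Col26a1, at 0.54, was at 0.4 without negative control replicate 0 (adjusted p = 0.1), at 0.45 without Chaf1a siRNA replicate 0 (0.097) and at 0.53 in DESeq2 (0.072).

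The authors' deposited table compares each group with the negative control. At an adjusted p under 0.05 the authors' deposited table has 34 of 42 members raised by Chaf1a siRNA, beside 5623 of 21067 genes with an adjusted p. When si308 was added, 33 of 41 members were raised in the authors' deposited table, beside 4726 of 18185 genes, and 31 of 41 when si309 was added, beside 5245 of 18185. The authors' deposited table has 0 members lowered in any of these comparisons.

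Each pool group was compared with Chaf1a siRNA to see which of these levels differed when a pool against mDux was added. The pool took the place of the negative control siRNA. Chaf1a RNA itself was higher by 0.23 with si308 (log2, edgeR quasi-likelihood test, adjusted p = 0.025). With si309 Chaf1a RNA differed by 0.09 (adjusted p = 0.51). The part of mDux RNA or of Chaf1a RNA in the differences below was not tested. With si308 the sum over all members was lower: it was 1160 ± 23 CPM with Chaf1a siRNA and 950 ± 23 CPM with si308 (SD, n = 2), with fibrillar RNA at 176 ± 8.4 and 136 ± 1.5 CPM and basement membrane RNA at 766 ± 14 and 611 ± 36 CPM. The RNA of the other collagens was at 213 ± 0.55 and 203 ± 11 CPM, a difference within the spread of the si308 libraries (211 and 195 CPM). Compared with Chaf1a siRNA, 14 of 41 tested members fell with si308 and 3 rose, against 12.0% and 9.91% of all genes tested. By class, 7 of 11 fibrillar members fell, 2 of 7 basement membrane members and 5 of 23 others. With a change of at least 2-fold, 2 members fell, Col1a2 and Col12a1, against 4.17% of all genes, and Col16a1 rose, against 0.462%. The median fitted log2 difference was -0.33 for the members tested and -0.51 for the fibrillar members, against 0.01 for all genes tested.

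Col1a2 fell by 1.87 with si308 (log2, SE 0.15, adjusted p = 1.9e-09). The other fibrillar members that fell were Col2a1 and Col5a1, each by 0.41 (adjusted p = 0.0019 and 0.00026), Col5a2 by 0.52 (0.0034), Col11a1 by 0.66 (0.00059), Col11a2 by 0.59 (0.013) and Col27a1 by 0.58 (0.0023). Col5a3 was the fibrillar member that rose, by 0.52 (SE 0.12, adjusted p = 0.0044). Col1a1, the partner of Col1a2, differed by -0.23 (SE 0.14, adjusted p = 0.27).

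Among basement membrane members, Col4a1 fell by 0.38 (SE 0.07, adjusted p = 0.00034) and Col18a1 by 0.32 (SE 0.04, adjusted p = 1.4e-05) with si308, while Col4a2 differed by -0.15 (SE 0.10, adjusted p = 0.33) and Col15a1 by -0.15 (SE 0.18, adjusted p = 0.61). Of the others, Col12a1 fell by 1.18 (SE 0.30, adjusted p = 0.0068), Col7a1 by 0.46 (4.2e-05), Col14a1 by 0.46 (0.044), Col22a1 by 0.35 (0.026) and Col6a4 by 0.34 (0.013). Col16a1 rose by 1.01 (SE 0.17, adjusted p = 0.00013) and Col9a2 by 0.46 (SE 0.09, adjusted p = 0.00068). Col9a2, which had not been called with Chaf1a siRNA alone, was thus above both that group and the negative control with si308 (0.46 against the latter, adjusted p = 0.00015).

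Of the 17 calls with si308, 7 were lost when 1 library was left out, although each difference kept its sign, and the count of members that fell went from 14 to 9 without Chaf1a siRNA replicate 1. Without that replicate the difference was -0.45 for Col5a2 (adjusted p = 0.05), -0.35 for Col6a4 (0.064), -0.56 for Col11a2 (0.072), -0.37 for Col14a1 (0.25) and -0.32 for Col22a1 (0.14). Without Chaf1a siRNA replicate 0 it was 0.33 for Col5a3 (adjusted p = 0.13), -0.33 for Col6a4 (0.083), -0.62 for Col11a2 (0.051), -0.55 for Col14a1 (0.066) and -0.38 for Col22a1 (0.081). Without si308 replicate 0 it was -0.32 for Col5a2 (adjusted p = 0.076), 0.33 for Col5a3 (0.095), -0.3 for Col6a4 (0.083) and -0.49 for Col14a1 (0.093). Without si308 replicate 1 it was -0.58 for Col11a2 (adjusted p = 0.062), -0.8 for Col12a1 (0.12), -0.42 for Col14a1 (0.16) and -0.27 for Col22a1 (0.19), and for Col14a1 it was -0.46 without si309 replicate 1 (0.051). DESeq2 did not call Col5a3 (0.51, adjusted p = 0.15), Col12a1 (-1.17, 0.065), Col14a1 (-0.47, 0.14) and Col22a1 (-0.36, 0.099).

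With si309 the summed level of the collagen genes was 1080 ± 26 CPM (SD, n = 2), with fibrillar RNA at 155 ± 3.2 CPM, basement membrane RNA at 707 ± 13 CPM and the RNA of the others at 222 ± 9.6 CPM. Compared with Chaf1a siRNA, 5 of 41 members fell and 2 rose, against 7.06% and 3.76% of all genes tested, and the median fitted log2 difference was -0.15 against 0.01. Col1a2 fell by 0.96 (log2, SE 0.14, adjusted p = 2.7e-05) and Col12a1 by 1.27 (SE 0.30, adjusted p = 0.0073). Col27a1 fell by 0.50 (0.013), Col4a1 by 0.25 (0.023) and Col5a1 by 0.25 (0.029), while Col16a1 rose by 0.79 (SE 0.17, adjusted p = 0.0029) and Col5a3 by 0.49 (SE 0.13, adjusted p = 0.012). Col7a1 differed by 0.12 (SE 0.07, adjusted p = 0.32) and Col18a1 by -0.08 (SE 0.04, adjusted p = 0.32).

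**Figure D4:**
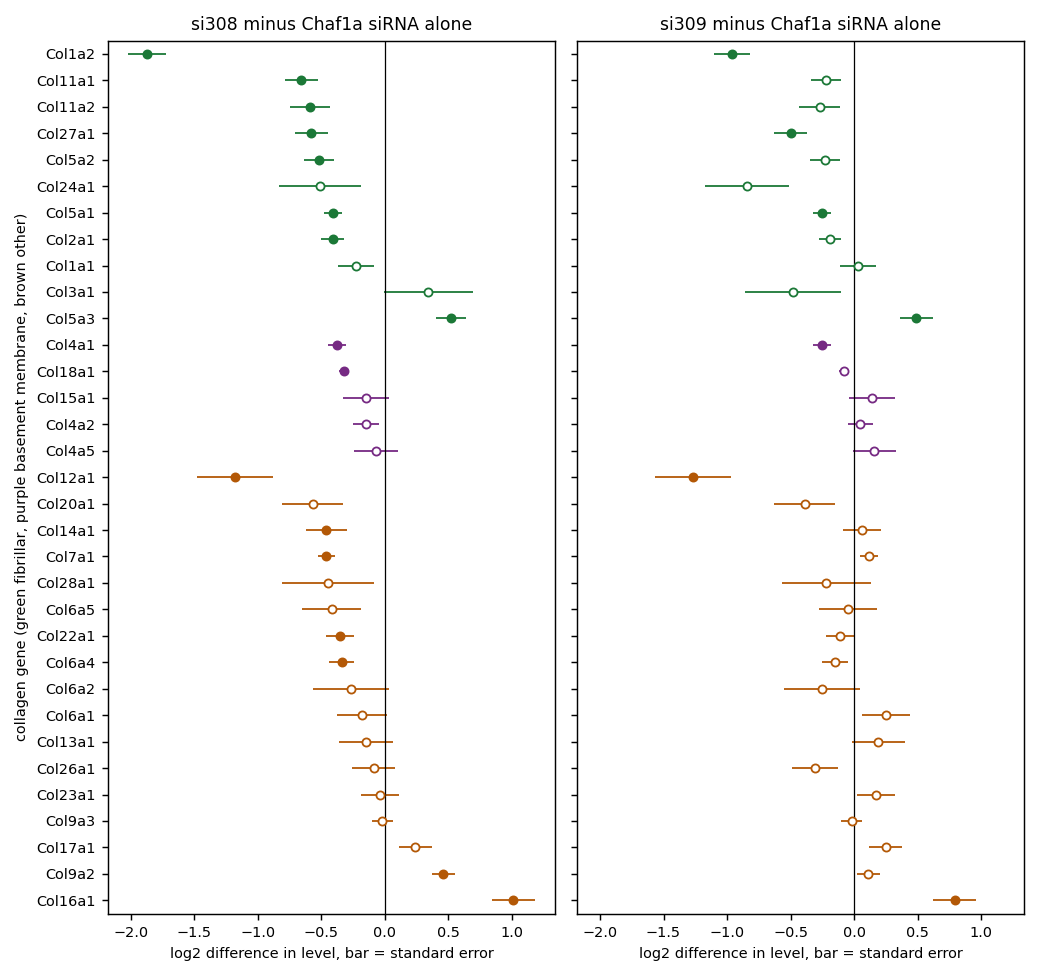
Fitted log2 difference from Chaf1a siRNA alone with si308 (left) and si309 (right) for the 33 collagen genes that reached a mean of 1 CPM in some group, with bars of 1 standard error and filled points for an adjusted p under 0.05. The panels share the Chaf1a siRNA libraries. Col1a2 lies at -1.87 and -0.96, Col12a1 at -1.18 and -1.27, and Col16a1 at 1.01 and 0.79.

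Of these 7 calls, all but that of Col1a2 were lost when 1 library was left out, and each difference kept its sign. Without Chaf1a siRNA replicate 0 the counts were 2 lowered and 0 raised, with a difference of -0.27 for Col5a1 (adjusted p = 0.094), 0.3 for Col5a3 (0.24), -1.25 for Col12a1 (0.056), 0.55 for Col16a1 (0.098) and -0.49 for Col27a1 (0.081). Without Chaf1a siRNA replicate 1, 2 members were lowered, with -0.19 for Col4a1 (adjusted p = 0.26), -0.23 for Col5a1 (0.2) and -0.51 for Col27a1 (0.066). Without si309 replicate 0, 3 were lowered and 1 raised, with 0.39 for Col5a3 (adjusted p = 0.15), -1.06 for Col12a1 (0.096) and -0.29 for Col27a1 (0.26). Without si309 replicate 1, 3 were lowered and 1 raised, with -0.2 for Col4a1 (adjusted p = 0.26), -0.17 for Col5a1 (0.39) and 0.69 for Col16a1 (0.066). DESeq2 did not call Col4a1 (-0.25, adjusted p = 0.33), Col5a1 (-0.25, 0.065), Col5a3 (0.48, 0.28) and Col12a1 (-1.29, 0.069).

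The pools were also compared with each other. With si309, 3 members were higher than with si308 and 1 was lower, against 2.39% and 1.27% of all genes tested. Col1a2 was higher by 0.91 (log2, SE 0.15, adjusted p = 0.00091), Col7a1 by 0.58 (SE 0.07, adjusted p = 1.8e-05) and Col18a1 by 0.24 (SE 0.04, adjusted p = 0.0022), and Col9a2 was lower by 0.34 (SE 0.09, adjusted p = 0.03). The libraries of each pool did not overlap for these genes. The call for Col9a2 was lost without si308 replicate 0 (-0.31, adjusted p = 0.15), si308 replicate 1 (-0.38, 0.07) or si309 replicate 1 (-0.24, 0.39).

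Measured against the negative control, most collagen genes were still higher with a pool. With si308, 35 of 41 members were raised and 0 lowered, against 33.1% and 28.5% of all genes tested, and with si309, 36 were raised and 0 lowered, against 35.0% and 30.3%. These counts too include the 8 members with at most 3 counts in the negative control. Over the 33 with more, 28 were raised with si308 and 28 with si309, and 0 were lowered. Some of these 33 also passed the filter on low counts only through the groups in which they were higher, so this count is not free of it. These comparisons share the negative control libraries with that of Chaf1a siRNA. The members' median fitted log2 difference was 2.2 with si308 and 2.34 with si309, or 2.18 and 2.2 with the 5 genes without a count in the negative control at their bounds, against 0.03 and 0.04 for all genes tested. Col11a1 was not called with si308 (-0.05, SE 0.13, adjusted p = 0.78) and raised with si309 (0.40, SE 0.13, adjusted p = 0.011). Col1a2 was raised by 5.15 with si308 (SE 0.34) and by 6.06 with si309 (SE 0.31), and Col18a1 by 0.24 and 0.48 (SE 0.04 each).

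Some of these calls were lost under an alternative. With si308, Col5a1 (0.21) was at 0.2 without negative control replicate 1 (adjusted p = 0.078), 0.19 without si308 replicate 0 (0.074) and 0.19 in DESeq2 (0.076). Col6a3 (1.8) was at 1.42 without negative control replicate 1 (adjusted p = 0.093) and 0.93 without si308 replicate 0 (0.23). Col12a1 (1.28) was at 1.07 without negative control replicate 0 (adjusted p = 0.057) and 0.87 without si308 replicate 0 (0.11). Col26a1 (0.44) was at 0.3 without negative control replicate 0 (adjusted p = 0.23), 0.28 without si308 replicate 0 (0.27), 0.43 in DESeq2 (0.16) and 0.44 with only the 2 groups compared (0.054).

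With si309, Col6a3 (1.57) was at 1.19 without negative control replicate 1 (adjusted p = 0.16), 1.44 without si309 replicate 0 (0.084) and 1.56 in DESeq2 (0.07). Col11a1 was at 0.18 without negative control replicate 0 (adjusted p = 0.23) and 0.36 without si309 replicate 0 (0.062). Col12a1 (1.19) was at 0.97 without negative control replicate 0 (adjusted p = 0.08), 0.89 without si309 replicate 1 (0.14) and 1.18 in DESeq2 (0.058). Col6a6 (1.97) was at 1.95 and 1.99 without either negative control replicate (adjusted p = 0.11 and 0.13), 1.94 in DESeq2 (0.098) and 0.08 without si309 replicate 1 (0.96). Col4a4, with 1 count in the negative control, was not called without si309 replicate 1 (adjusted p = 0.43).

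Genes that make, move, trim, bind or cleave collagen were counted from lists. As with the members, some genes of these lists and of the marker lists below passed the filter on low counts through the groups in which they were higher. Lox, Gp6, Sox7 and Postn are examples. The counts and medians of the lists are therefore not evidence free of that filter. The shares of all tested genes to read these counts against are 36.7% raised and 30.8% lowered with Chaf1a siRNA, and, compared with that group, 9.91% raised and 12.0% lowered with si308 and 3.76% and 7.06% with si309. Of 18 genes for chain hydroxylation and assembly, 9 rose and 3 fell with Chaf1a siRNA, with a median of 0.37. Serpinh1, the collagen chaperone HSP47, was at 65.4 and 66.8 CPM in control cells, 167 and 166 CPM with Chaf1a siRNA, 137 and 151 CPM with si308, and 149 and 164 CPM with si309. It rose by 1.33 with Chaf1a siRNA (SE 0.06, adjusted p = 2.1e-14). Fkbp10, a prolyl isomerase that acts on procollagen, rose by 2.50 (SE 0.12, adjusted p = 1e-13) from 3.12 to 17.8 CPM, and Plod1, a lysyl hydroxylase, by 0.76 (adjusted p = 3.8e-09).

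P4ha2, a catalytic subunit of prolyl 4-hydroxylase, was at 18.6 and 25.4 CPM in control cells, 72.4 and 70.8 CPM with Chaf1a siRNA, 17.9 and 13.4 CPM with si308, and 23.8 and 21.7 CPM with si309. It rose by 1.69 with Chaf1a siRNA (SE 0.11, adjusted p = 2e-11) and fell by 2.21 with si308 (SE 0.11, adjusted p = 1.2e-12) and by 1.66 with si309 (SE 0.11, adjusted p = 1.3e-10) compared with Chaf1a siRNA alone. The si308 libraries lay below both negative control libraries and the si309 libraries lay between them. In this list 4 genes fell and 0 rose with si308, the others being P4hb, Plod2 and Serpinh1, and 1 fell and 3 rose with si309.

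**Figure D5:**
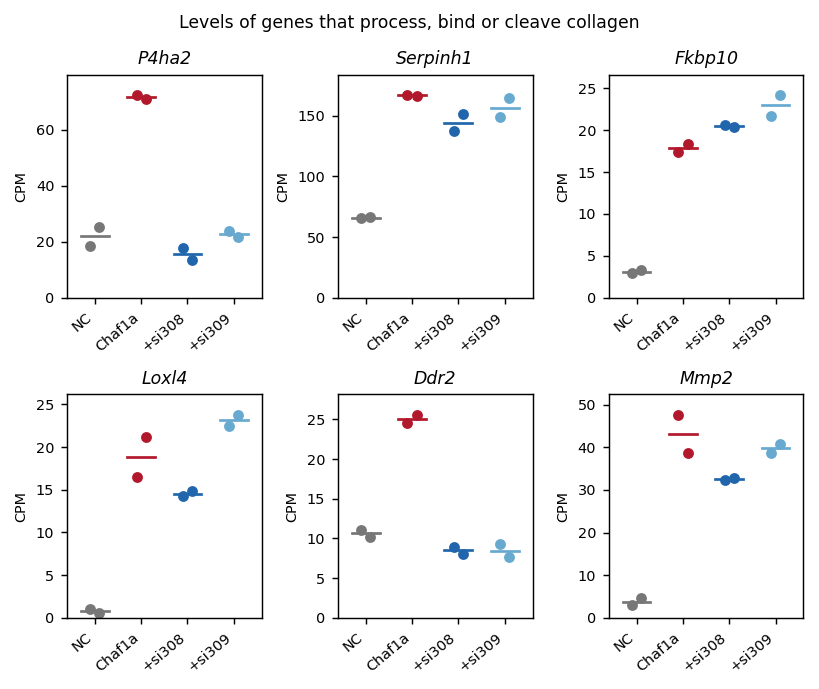
Level in CPM of 6 genes that process, bind or cleave collagen, in each library (points) with the group mean (line), for the negative control (NC), Chaf1a siRNA, and Chaf1a siRNA with si308 or si309. The pool points of P4ha2 and Ddr2 lie far below those of Chaf1a siRNA, whereas those of Serpinh1, Fkbp10, Loxl4 and Mmp2 stay above the negative control.

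Of 10 tested genes for collagen export, 5 rose and 3 fell with Chaf1a siRNA, with a median of 0.07. Creb3l1, a transcription factor for secretory genes, rose by 2.27 (SE 0.12, adjusted p = 4e-13), and Mia3, which helps to load collagen into transport carriers, by 0.32 (SE 0.05, adjusted p = 1.8e-05). Ctage5, its partner, fell by 0.81 (SE 0.06, adjusted p = 2.9e-10) from 110 to 62.7 CPM. These counts stand beside 36.7% raised and 30.8% lowered of all genes tested.

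Of 13 tested genes for propeptide cleavage and crosslinking, 10 rose and 1 fell with Chaf1a siRNA, with a median of 1.09. Loxl4, a lysyl oxidase, was at 1.02 and 0.606 CPM in control cells, 16.5 and 21.2 CPM with Chaf1a siRNA, 14.3 and 14.8 CPM with si308, and 22.5 and 23.8 CPM with si309, and rose by 4.56 with Chaf1a siRNA (SE 0.19, adjusted p = 6.8e-15). Pxdn, which crosslinks type IV collagen, rose by 2.32 (SE 0.10, adjusted p = 2.4e-14) from 6.56 to 33.1 CPM, and Bmp1, the C-propeptide protease, by 3.53 (SE 0.18, adjusted p = 3e-13) from 1.16 to 14.0 CPM. With si308, 3 genes of the list rose and 3 fell, and with si309 1 rose and 0 fell.

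The laminins, nidogens and other partners of type IV collagen in basement membranes showed 14 raised and 3 lowered genes of 19 with Chaf1a siRNA, with a median of 0.99. Lama3 rose by 1.63 (SE 0.07, adjusted p = 2.9e-14) from 20.6 to 63.7 CPM, Lama5 by 0.99 (adjusted p = 2.5e-13) and Lamb3 by 3.67 (SE 0.20, adjusted p = 5.5e-13). Not all partners were higher: Lama1 was at 118 and 141 CPM in control cells and 72.9 and 74.7 CPM with Chaf1a siRNA. With si308, 10 of 19 fell and 0 rose, with a median of -0.20. With si309, 6 fell and 0 rose, with a median of -0.14.

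Of 9 tested collagen receptors, 7 rose and 1 fell with Chaf1a siRNA. Itga1, a subunit of a collagen-binding integrin, rose by 3.66 (SE 0.26, adjusted p = 4.5e-11), and Mrc2, an endocytic receptor for collagen, by 2.99 (SE 0.22, adjusted p = 1.1e-10). Ddr2, a receptor kinase for fibrillar collagen, was at 11.1 and 10.2 CPM in control cells, 24.6 and 25.6 CPM with Chaf1a siRNA, 8.96 and 8.05 CPM with si308, and 9.24 and 7.60 CPM with si309. It rose by 1.24 with Chaf1a siRNA (SE 0.11, adjusted p = 1.7e-09) and fell by 1.57 with si308 and 1.58 with si309 compared with that group (SE 0.11 each, adjusted p = 2.3e-10 and 2.6e-10), to below both negative control libraries. With si308, 2 receptors rose and 3 fell, and with si309 3 rose and 1 fell.

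Of 7 tested genes for collagen breakdown and its inhibitors, 6 rose and 1 fell with Chaf1a siRNA, with a median of 1.5. Mmp2, a gelatinase that also cleaves type IV collagen, was at 2.94 and 4.51 CPM in control cells, 47.7 and 38.8 CPM with Chaf1a siRNA, 32.4 and 32.7 CPM with si308, and 38.7 and 40.9 CPM with si309, and rose by 3.51 with Chaf1a siRNA (SE 0.13, adjusted p = 1.3e-15). Timp3, an inhibitor of metalloproteases, rose by 3.38 (SE 0.19, adjusted p = 9.7e-13), and Timp1, another, fell by 0.70 (SE 0.07, adjusted p = 1.8e-08) from 59.2 to 36.4 CPM. With si308, 1 gene of this list rose and 2 fell, and with si309 0 were called.

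Markers of cell types known to make collagen moved with the members for some lists and not for others. Their counts stand beside the same 36.7% raised and 30.8% lowered of all genes tested. Of 13 tested primitive endoderm markers, 12 rose and 0 fell with Chaf1a siRNA, with a median of 3.16, among them Dab2 from 1.24 to 17.6 CPM and Amn from 0.431 to 12.5 CPM. The list's summed level was 75.2 and 76.4 CPM in the negative control libraries, 224 to 226 CPM with Chaf1a siRNA, 180 to 198 CPM with si308 and 206 to 219 CPM with si309, most of it from Serpinh1, which the assembly list holds as well. Sox7 and Afp had 0 counts in the negative control and so passed the filter on low counts through the groups in which they were higher. Foxa2, Pth1r, Sox17 and Amn were also too low in the negative control to pass without those groups. The count of raised markers in this list thus rests in part on the filter. Of 11 tested fibroblast markers, 8 rose and 2 fell, Thy1 going from 1.31 to 28.3 CPM and Fn1, which dominates the sum, from 2630 to 1880 CPM. That list summed to 2860 and 3220 CPM in control cells, 2450 and 2510 CPM with Chaf1a siRNA, 2080 to 2120 CPM with si308 and 2030 to 2130 CPM with si309. Dcn, Postn, Twist2, Prrx1, Tcf21 and S100a4 were at 0 in the negative control, and Dcn, Lum, Twist2, Prrx1 and Tcf21 were too low to test.

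Of 7 tested cartilage markers, 6 rose and 0 fell, and their sum was 20.9 and 21 CPM in the negative control and 62.7 to 80.1 CPM in the depleted libraries, with Sox9 at 0 in the former. Trophectoderm markers showed 6 raised and 2 lowered of 9, endothelial markers 5 and 1 of 6, and stem cell markers 2 and 8 of 10. The trophectoderm sum was 133 CPM in both Chaf1a siRNA libraries and 139 to 152 CPM in the others, and the endothelial sum 319 to 360 CPM over the 8 libraries. All 11 tested two-cell-like markers rose with Chaf1a siRNA and fell with each pool, from a sum of 1.68 CPM in the negative control to 1140 CPM with Chaf1a siRNA, 1.81 CPM with si308 and 29.9 CPM with si309. The part of each of these cell states in the collagen levels was not tested.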

How the data were processed

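Per the labels' protocols, polyA RNA was made into stranded TruSeq mRNA libraries and sequenced as 125-base pairs. Per the submitters' processing notes, the authors used Novoalign 2.8, mm10 and DESeq2; the counter, its annotation and its strand setting are not given in the sources used here. The deposited gene table holds raw counts per Ensembl gene and library. Beside them stand the authors' log2 fold changes against the negative control and adjusted p-values, from which only calls were taken. Another 8 columns of regularised log2 values per library were not used. The repeat table was not used.

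The 0 and 1 that end the names of count columns were not matched to sample titles, so replicate 0 and 1 are columns of a known group. All 44 members and 27843 of 28431 IDs matched GENCODE M21, the source of GRCm38 positions and exon lengths. Counts were fitted with edgeR 4.0.16 in R 4.3.3: TMM factors from all genes, filterByExpr with the groups (17977 genes left), 1 mean per group over the 8 libraries, and the quasi-likelihood F test. Raised (rose) and lowered (fell) mean an adjusted p under 0.05, by Benjamini-Hochberg over all genes tested. The script was tested on simulated counts. CPM values include the TMM factors, and ± gives the SD of 2 libraries. Folds against 0 counts used a floor of 3 counts per library, and ratios against 1 to 3 counts have exact 95% counting intervals. Reads carried no molecular identifiers, so both cover counting error only. The series' text calls replicates biological and names no batch.

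Members with a mean of at least 1 CPM in any group are given in every library, lower ones where called, and of each gene list up to 4 genes with the smallest adjusted p. Fn1 and Lama1 were named after their values were seen. A gene of the basement membrane list is not reported here. The members, the classes and the 13 lists were chosen with earlier results of these data known. Alternatives were RLE size factors, library totals, no filter or a stricter filter on low counts (50 counts in 2 libraries), DESeq2 1.42.0, only the 2 groups compared, a replicate block, leaving out each library, and longest-transcript length.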

Additional observations from a re-analysis of the deposited data

Results flagged for a closer look

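The difference between the pools against mDux, each given with Chaf1a siRNA, was itself called for 4 collagen genes (si309 minus si308, log2, edgeR quasi-likelihood test). It was 0.91 for Col1a2 (adjusted p = 0.00091), 0.58 for Col7a1 (adjusted p = 1.8e-05) and 0.24 for Col18a1 (adjusted p = 0.0022), each higher in both si309 libraries than in both si308 libraries. For Col9a2 it was -0.34 (adjusted p = 0.03), with both si309 libraries below both si308 libraries, and this call was lost without si308 replicate 0 (adjusted p = 0.15), si308 replicate 1 (0.07) or si309 replicate 1 (0.39). The part of the pools' sequences, their doses or the residual mDux or Chaf1a RNA in these differences was not tested.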

How the results depend on the processing

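With Chaf1a siRNA, 34 of 37 calls held under every alternative that tested the gene. Not every alternative tested all members. The stricter filter tested 29, of which 26 were raised, and the fit of only the 2 groups compared tested 38, of which 35 were raised. Compared with Chaf1a siRNA, leave-one-out counts were 2 to 3 raised and 9 to 15 lowered with si308, and 0 to 2 raised and 2 to 5 lowered with si309, and DESeq2 gave 1 raised and 2 lowered with si309. Every alternative that tested the gene kept 10 of 17 calls with si308 and 1 of 7 with si309. Against the negative control, leave-one-out counts were 31 to 35 raised and 0 to 2 lowered with si308, 33 to 36 raised and 0 to 0 lowered with si309, and 1 was lowered with si308 when no low-count filter was used. For si309 minus si308 they were 3 to 5 raised and 0 to 1 lowered, and 5 were raised with no low-count filter or with only the 2 groups compared. The remaining counts were within 1.5 times those reported. Among values without a call, some turned sign. Col9a2 with Chaf1a siRNA was 0.16 with library totals and -0.14 to 0.12 over the leave-one-out fits (0.09 without negative control replicate 1, 0.12 without Chaf1a siRNA replicate 1). Col13a1 was -0.39 to 0.06 (0.06 without negative control replicate 1) and Col20a1 -0.19 to 0.4 (-0.19 without negative control replicate 0, -0.05 without Chaf1a siRNA replicate 1). Compared with Chaf1a siRNA, Col9a3 was -0.06 to 0.03 with si308 (0.03 without si308 replicate 1), Col1a1 -0.13 to 0.19 with si309 (-0.13 and -0.01 without replicate 0 of Chaf1a siRNA or si309), and Col9a2 -0.0 to 0.25 with si309 (-0.0 without Chaf1a siRNA replicate 1). Col11a1 with si308 against the negative control was 0.11 with library totals and -0.26 to 0.24 over the leave-one-out fits (0.24 without negative control replicate 1, 0.01 without si308 replicate 1). The cause was not tested. Deviations of same-numbered libraries correlated by -0.091 to 0.199, which shows no strong pairing by number but cannot exclude a shared batch. The replicate block left every member count as reported (37 and 0, 3 and 14, 2 and 5, 35 and 0, 36 and 0, 3 and 1 raised and lowered). Counts over the gene lists were not recomputed. Each group had 2 libraries, and members under about 1 CPM rest on few counts.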
